A study of Mus musculus with 19 samples.

Results

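Non-knockout blastocysts from crosses of heterozygous mice were compared with blastocysts of wild-type (WT) parents, over all genes apart from the ERCC spike-in RNAs. The comparison used 9 of the 19 single embryos of the study, chosen by the names of their columns and by their labels, with 6 blastocysts of the heterozygous crosses set against 3 WT blastocysts. Of the 6, 3 came from in vitro fertilisation of Alyref+/- oocytes by Alyref+/- sperm (the Alyref cross) and 3 from Gabpb1+/- oocytes and Gabpb1+/- sperm (the Gabpb1 cross). The 3 controls came from WT B6D2F1 mice, and B6D2F1 is the strain given for all 9 embryos. Each embryo was grown at 37 °C under 5% CO2 in KSOM, a culture medium for early mouse embryos, was taken at 96 hours post insemination, was freed of its zona pellucida and was lysed alone. The ERCC RNAs went in after lysis, polyA RNA was turned into cDNA that was amplified over 16 cycles, and Nextera XT libraries were read as pairs of 50 and 25 bases.

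The genotype given for the 6 blastocysts of the crosses is WT or heterozygous, although their column names carry the letters KO, so the 6 may hold a mixture of both genotypes. Whether any single embryo was heterozygous was not analysed here. The controls were fertilised separately from either cross, and the labels name no batch, date or litter. A heterozygous parent, a heterozygous embryo, a separate fertilisation and other alleles of the parents therefore cannot be told apart as the source of a difference. Nothing in the labels says that the embryos of a group came from separate pairs of parents, and p-values then measure the spread between these embryos only.

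A mouse blastocyst at this age holds an outer trophectoderm, which forms the placenta, and an inner cell mass that separates into epiblast, which forms the embryo, and primitive endoderm. Primitive endoderm cells are marked by the transcription factors GATA6, SOX17 and GATA4, and they secrete the type IV collagens and laminins of the first basement membranes. Alyref encodes an adaptor that hands mRNA to the nuclear export receptor, and Gabpb1 encodes a subunit of GABP, an ETS-family transcription factor known for driving genes of mitochondrial respiration.

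The 9 libraries held from 8.64 to 31.5 M (megacounts) of gene counts, and 16002 of 35868 genes with any count were tested. Expression is given as CPM, counts scaled to a common library size with the TMM method, and differences are log2 values of the 6 heterozygous-cross blastocysts minus the 3 WT blastocysts. A gene is called when its adjusted p from edgeR's quasi-likelihood test with Benjamini-Hochberg adjustment is under 0.05. The log2 ratio of gene counts to ERCC counts was 6.48 ± 0.303 (SD, n = 6) in the crosses and 6.39 ± 0.343 (SD, n = 3) in WT, with an exact two-sided permutation p of 0.726. The sex-linked RNAs set some embryos apart. Gabpb1 cross 2 and Gabpb1 cross 3 had 0 and 0.0744 CPM of the Y-linked Ddx3y and 241 and 59.0 CPM of Xist, the RNA that silences an X chromosome. The other 7 embryos held 68.0 to 114 CPM of Ddx3y. The first WT blastocyst held both kinds, with 278 CPM of Xist beside 78.3 CPM of Ddx3y. Gabpb1 cross 2 also stood alone on the first principal component, at 84.1, where the other 8 embryos lay between -40.6 and 7.83.

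**Figure D1:**
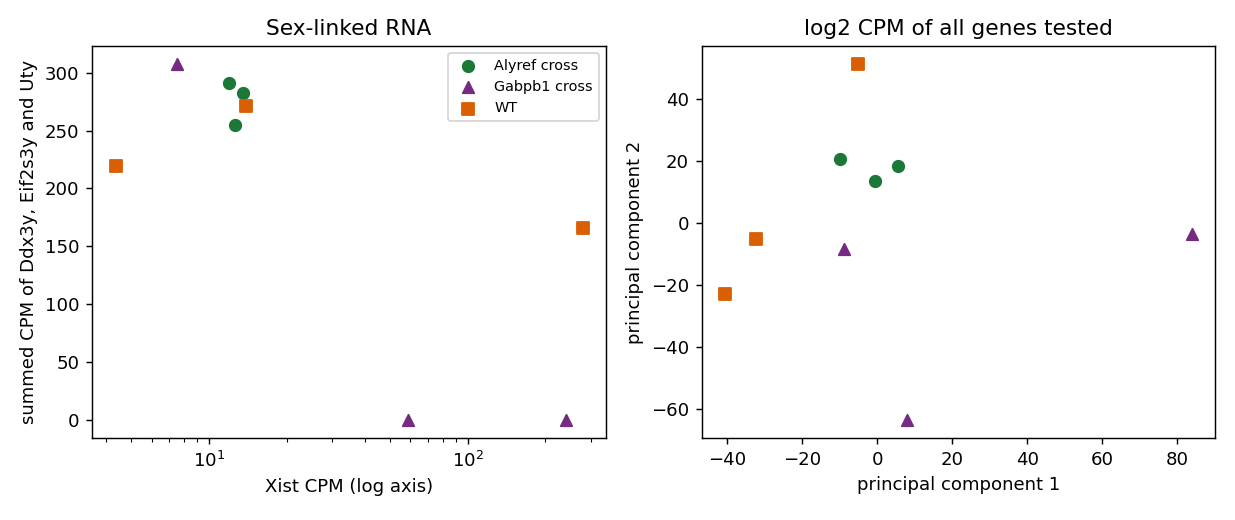
Left, summed CPM of the Y-linked genes Ddx3y, Eif2s3y and Uty against Xist CPM on a log axis, and right, the first 2 principal components of log2 CPM over the genes tested, with 1 point per blastocyst coloured by its group. The pair of Gabpb1 cross blastocysts without Y-linked RNA lies at the bottom of the left panel, WT 1 lies at the right with both kinds of RNA, and Gabpb1 cross 2 lies at 84.1 on the first component.

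Across all genes, Pgc alone was called, and it fell in the heterozygous-cross blastocysts. The share called was 0.00625% of the genes tested. No gene was called higher, while 632 genes had higher values and 687 lower values at an unadjusted p under 0.05, together 8.24% of those tested. In 315 genes (1.97%) every cross embryo lay above every WT embryo, and in 332 (2.07%) every one lay below, together 4.04%. For 64.7% of the genes the 95% interval of the difference lay between -1 and 1, and this share was 43.5% for genes with a mean FPKM under 5 and 91.6% for those over 50. In simulated data of the same size, the test called 26% of genes set to differ by 1, 84% of those set to differ by 2 and 92% of those set to differ by 3.

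Among the 26 alternatives the tool moved the count of calls most: DESeq2's Wald test called 147 genes, 80 higher and 67 lower. Without the pair of embryos that lack Y-linked RNA 9 genes were called, all lower, and without the 3 embryos with over 50 CPM of Xist 59 were called, 18 higher and 41 lower. With the replicate number as a block 0 genes were called, with 1130 at an unadjusted p under 0.05.

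Pgc (ENSMUSG00000023987.14) encodes progastricsin, the precursor of a gastric aspartic protease. It lies on the plus strand of chromosome 17, at chr17:47726842-47734482 of GRCm38. Its promoter is shown because it belongs to the gene that passed the test. RefSeq gives the following 250 bases ahead of the start site, chr17:47726592-47726841 on the plus strand of GRCm38.p6, with the letters TATAAA in capitals.

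Pgc upstream: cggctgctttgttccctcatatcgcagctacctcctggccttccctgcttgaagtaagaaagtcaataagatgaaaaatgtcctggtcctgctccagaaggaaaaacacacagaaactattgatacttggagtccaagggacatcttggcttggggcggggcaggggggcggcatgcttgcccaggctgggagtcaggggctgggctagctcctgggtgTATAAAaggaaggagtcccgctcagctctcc

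Both strands were searched for TATAAA, the letters of a TATA box. GATAA was searched as the core read by GATA factors. CCGGAAG was searched as a core read by ETS factors such as GABP. The Pgc stretch held 1 match to the TATA letters and 0 to the other motifs. Of the 32851 RefSeq windows of 250 bases ahead of a start site, 12.4% held the TATA letters, 22.6% the GATA core and 6.91% the ETS core. A match describes the letters and is not a measured site.

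Pgc was at 2.15, 2.70 and 1.78 CPM in the Alyref cross blastocysts, at 2.96, 2.92 and 5.06 CPM in the Gabpb1 cross blastocysts and at 16.1, 33.1 and 27.1 CPM in WT. All 6 cross embryos lay below all 3 WT embryos. The log2 difference of Pgc was -3.12 (SE 0.32, adjusted p 0.0134). Each cross on its own gave a similar value for Pgc, at -3.51 in the Alyref cross (adjusted p 0.0268) and at -2.79 in the Gabpb1 cross (adjusted p 0.0720). Both comparisons share the same WT embryos. Without WT 1 the Pgc difference was -3.36 (adjusted p 0.00746), and without the pair of embryos that lack Y-linked RNA it was -3.40 (adjusted p 0.0128). The call on Pgc was lost without Alyref cross 2 (adjusted p 0.0637), Gabpb1 cross 1 (0.0706), WT 2 (0.0762) or WT 3 (0.124), and with the replicate block (0.0528), while its log2 difference stayed between -3.64 and -2.61 over the 26 alternatives.

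The primitive endoderm markers had lower values in the heterozygous-cross blastocysts. Of 18 markers in the list 16 were tested, and the estimate was below 0 for each of them, with a median log2 difference of -1.28 where the median of all genes tested was -0.0033. None was called by edgeR. An unadjusted p under 0.05 was found for 11 of the 16, all lower, where the background of lower genes at that threshold was 4.29%, and in 7 the embryos of the crosses all lay below those of WT, where the background was 2.07%. The untested markers Fgfr3 and Hnf4a did not pass the filter on low values. Foxa2, counted among the 16 and the 7, may have passed it through the WT embryos only. In RNA of whole embryos, fewer primitive endoderm cells, less RNA per cell and less RNA of these genes in other cells cannot be told apart. The median stayed between -1.49 and -0.98 over the 26 alternatives, with from 8 to 12 members lower at an unadjusted p under 0.05, and it was -1.49 without WT 1, -1.17 without Gabpb1 cross 2 and -1.21 without both embryos that lack Y-linked RNA. The estimate was below 0 for 15 of the 16 under ERCC scaling, with limma at either pseudocount, with the Y-linked covariate, without the pair that lacks Y-linked RNA, without the 3 embryos over 50 CPM of Xist, and without Alyref cross 3, WT 1 or WT 2. With no filter it was below 0 for 17 of 18. DESeq2 called 6 of the 16 markers, all lower, where it called 67 of all 16002 genes lower. The 6 were Col4a1, Col4a2, Lama1, Lamb1, Lamc1 and Sparc, with no transcription factor among them.

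Of the 6 basement membrane genes in the list, 5 did not overlap between the crosses and WT. Col4a1 (ENSMUSG00000031502.11, minus strand, chr8:11198423-11312826) and Col4a2 encode the chains of type IV collagen. Their start sites face away from each other 21 bases apart, with overlapping ends, so reads in the overlap may have been counted for either gene. Col4a1 was at 24.0, 16.2 and 24.1 CPM in the Alyref cross, at 19.04, 7.31 and 14.3 CPM in the Gabpb1 cross and at 62.9, 75.0 and 87.2 CPM in WT. The groups did not overlap. The log2 difference of Col4a1 was -2.10 (SE 0.30, adjusted p 0.0637). It was called in 9 of the 26 alternatives, among them those without Gabpb1 cross 2 (adjusted p 0.0208) and without both embryos that lack Y-linked RNA (adjusted p 0.0182). Col4a2 was at 12.8, 10.2 and 17.3 CPM, then at 12.4, 3.78 and 8.11 CPM, and in WT at 36.01, 37.7 and 44.7 CPM, again without overlap. The log2 difference of Col4a2 was -1.87 (SE 0.34, adjusted p 0.169).

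The laminin genes Lama1, Lamb1 and Lamc1, which encode the 3 chains of laminin-111, followed the collagens in direction. Lamc1 was at 70.6, 63.5 and 57.8 CPM in the Alyref cross, at 52.3, 32.8 and 48.7 CPM in the Gabpb1 cross and at 124, 122 and 136 CPM in WT. Lamc1 varied little in WT and more in the Gabpb1 cross, and its log2 difference of -1.23 had an SE of 0.20 (adjusted p 0.108). Lama1 lay between 27.7 and 43.3 CPM in 5 of the cross embryos, at 3.78 CPM in Gabpb1 cross 2 and at 102, 140 and 148 CPM in WT. Lamb1 lay from 23.8 to 72.5 CPM in the crosses and from 111 to 137 CPM in WT. Neither gene overlapped between the 6 and the 3 embryos, and their log2 differences were -2.06 (SE 0.47) and -1.29 (SE 0.30), with an adjusted p of 0.334 for each. Sparc, whose product binds collagen, gave a log2 difference of -1.27 but overlapped, since WT 1 held 159 CPM beside 517 and 417 CPM in the other WT embryos and 82.9 to 207 CPM in the crosses.

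Of the 5 transcription factors of the lineage that were tested, Foxa2 alone did not overlap. Gata6, which marks the lineage from its onset, was at 77.7 to 113 CPM in the crosses and at 169, 93.9 and 91.5 CPM in WT, a log2 difference of -0.29 (SE 0.21) with overlapping groups, and it was 0.05 without WT 1. Sox17 ranged from 10.7 to 48.1 CPM against 33.4 to 87.5 CPM, with a log2 difference of -1.02 (SE 0.44, adjusted p 0.596). Gata4 ranged from 3.53 to 19.5 CPM against 16.5 to 44.4 CPM, with a log2 difference of -1.40 (SE 0.50, adjusted p 0.495). For Sox17 and Gata4 the lowest WT value was that of WT 1, and some cross embryos lay above it. Foxa2 was low in all embryos, at 0 to 1.19 CPM against 2.25 to 4.84 CPM, without overlap. At such levels it may have entered the tests through the WT embryos only, so its lower value is not separate support. Sox7 held 0.0628 to 1.10 CPM in 5 cross embryos but 11.7 CPM in Gabpb1 cross 3, within its WT range of 3.55 to 16.6 CPM.

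Among receptors and endocytic proteins of primitive endoderm, Pdgfra, the receptor for platelet-derived growth factor, had a log2 difference of -0.81 (SE 0.27, adjusted p 0.495) and Fgfr2, a receptor of fibroblast growth factor, of -0.43 (SE 0.21, adjusted p 0.658). Fgfr2 did not overlap, at 57.3 to 120 CPM against 123 to 163 CPM. Cubn and Amn, which encode the subunits of a receptor for vitamin B12 complexes, gave log2 differences of -0.86 (SE 0.49) and -2.62 (SE 0.93), and both overlapped. Dab2, an endocytic adaptor that trophectoderm also expresses, gave -0.04, with a 95% interval of -0.54 to 0.46. How much RNA of the other markers came from cells outside primitive endoderm was not tested.

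**Figure D2:**
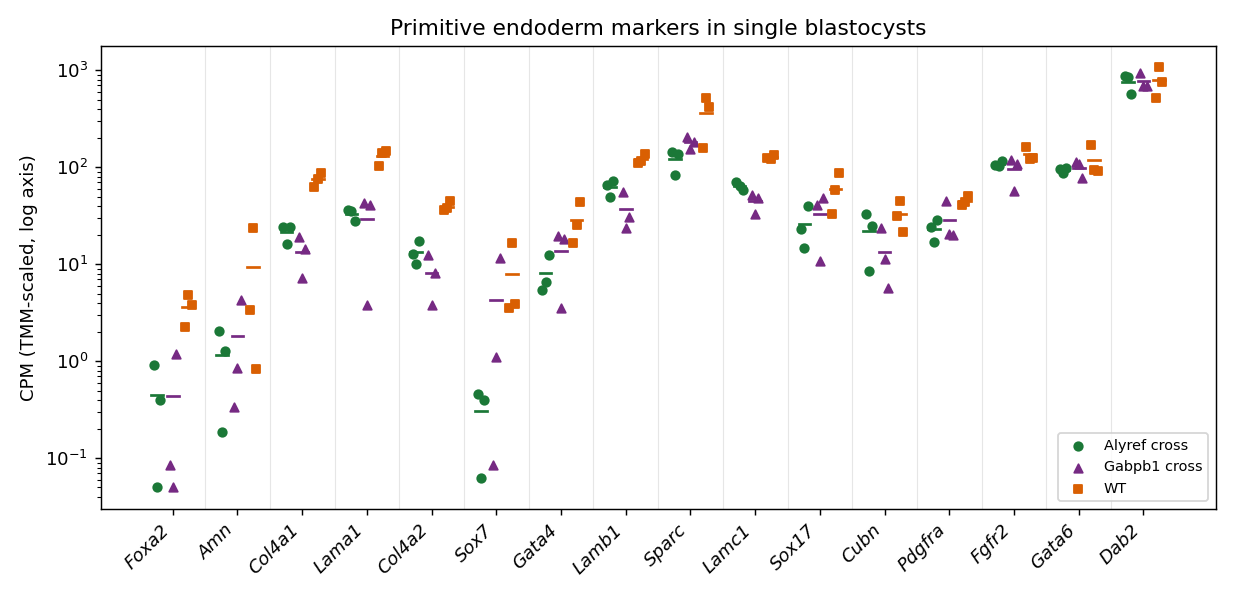
CPM on a log axis of the 16 tested primitive endoderm markers, ordered by log2 difference, with 1 point per blastocyst and a bar at the mean of each group of 3. Values under 0.05 CPM are drawn at 0.05. For Col4a1, Col4a2, Lama1, Lamb1, Lamc1, Foxa2 and Fgfr2 the WT squares lie above every embryo of the crosses, and for the other 9 markers the groups overlap.

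Each cross gave values on the same side when set against the same WT embryos. The median of the 16 primitive endoderm markers was -1.39 in the Alyref cross and -1.16 in the Gabpb1 cross, with 12 and 8 members lower at an unadjusted p under 0.05. Col4a1 was at -1.81 and -2.46, Lamc1 at -0.99 and -1.51, Lama1 at -1.98 and -2.14, and Gata4 at -1.85 and -1.05. Of all 16002 genes, 533 were lower at that threshold in the Alyref cross and 856 in the Gabpb1 cross. With both directions counted, the share was 5.86% in the Alyref cross, with Pgc as its 1 called gene (0.00625%). In the Gabpb1 cross it was 11.4%, with 0 called genes (0%). The Gabpb1 cross holds the pair of embryos that lack Y-linked RNA. With the Y-linked covariate it had 776 genes at that threshold instead of 1822, and the Alyref cross 927 instead of 937. The part of embryo sex in these counts was not tested. Between the crosses themselves, 7.21% of genes had an unadjusted p under 0.05 and 0 were called (0%), with a smallest adjusted p of 0.0643. DESeq2 called 61 genes in the Alyref cross, 273 in the Gabpb1 cross and 78 between the crosses.

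The lists of the other lineages had medians nearer to that of all genes. The 19 tested epiblast and pluripotency genes had a median log2 difference of -0.21, with 12 below 0. Of the 19, 3 were lower and 0 higher at an unadjusted p under 0.05 (15.8%), where the share of all genes was 8.24%. Sox2, a factor of the inner cell mass, was at 1.10 to 7.13 CPM in the crosses and at 9.16, 11.1 and 10.6 CPM in WT, without overlap (log2 difference -0.99, SE 0.41, adjusted p 0.565). Klf4 gave -0.84 and Dppa5a -0.51. Nanog was at 0.19 and Pou5f1 at 0.40, each with overlapping groups, and Nanog was at -0.10 without the pair of embryos that lack Y-linked RNA. By cross, Nanog was at -0.24 in the Alyref cross and 0.53 in the Gabpb1 cross, and Pou5f1 at -0.04 and 0.74. The median of the 19 tested trophectoderm genes was -0.08, with 10 below 0. At that threshold 2 were lower and 1 higher, also 15.8%. Elf5, a factor of trophoblast stem cells, was at 18.4, 22.7 and 5.54 CPM in the Alyref cross, at 8.21, 5.85 and 13.7 CPM in the Gabpb1 cross and at 42.4, 37.1 and 33.6 CPM in WT. The 6 values of Elf5 all lay below the 3, with a log2 difference of -1.59 (SE 0.40, adjusted p 0.380). Tead4, which acts at the onset of the lineage, lay the other way at 0.40 (SE 0.14), from 89.8 to 124 CPM against 69.1 to 87.3 CPM. Cdx2 at 0.19, Gata3 at -0.08 and Krt8 at 0.02 overlapped, with 95% intervals that lay between -0.56 and 0.56. Of the genes for blastocoel transport, Aqp8, a water channel, had the largest difference at -1.72 (SE 0.39, adjusted p 0.328), with 14.1 to 37.4 CPM in the crosses against 29.5, 82.5 and 103 CPM. DESeq2 called Elf5 and Aqp8, both lower.

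**Figure D3:**
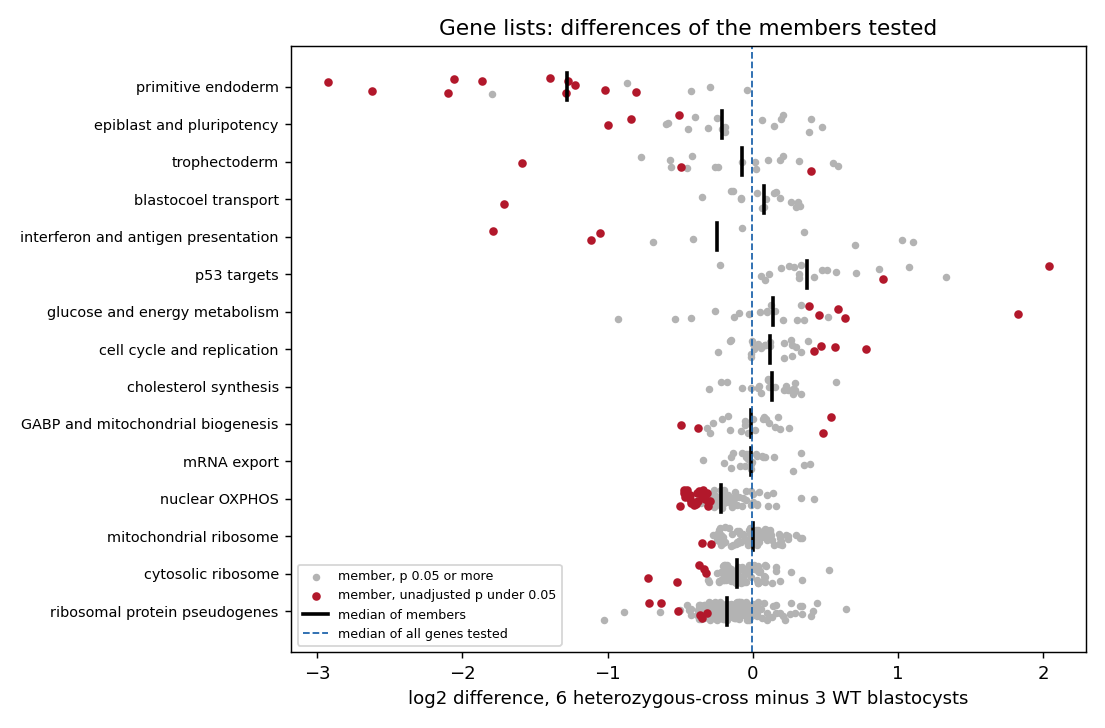
Log2 difference of the heterozygous-cross minus the WT blastocysts for each tested member of 15 gene lists, in red where its unadjusted p is under 0.05, with a black line at the median of the members and a dashed line at the median of all genes tested. The primitive endoderm members lie to the left with a median of -1.28, the p53 targets to the right with a median of 0.38, and the other 13 medians lie between -0.24 and 0.14.

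The genes deleted in the parents did not stand out. Alyref was at 191, 242 and 249 CPM in the Alyref cross, at 224, 265 and 307 CPM in the Gabpb1 cross and at 187, 267 and 292 CPM in WT, so that the groups overlapped. The log2 difference of Alyref was -0.01 with a 95% interval of -0.40 to 0.38, and its sign turned in 10 of 26 alternatives. Gabpb1 was at 39.0, 41.3 and 45.04 CPM in the Alyref cross, at 50.0, 47.2 and 79.4 CPM in the Gabpb1 cross and at 44.9, 39.2 and 42.8 CPM in WT. All 3 Gabpb1 cross embryos lay above the WT embryos, with a log2 difference of 0.48 for that cross (unadjusted p 0.0498, adjusted p 0.439 by edgeR's quasi-likelihood test). Counts per gene do not show which allele was read. Of 56 tested genes within 1 Mb of Alyref 3 had lower values at an unadjusted p under 0.05, and of 24 near Gabpb1 2 had higher and 1 lower values. The background was 4.29% for lower and 3.95% for higher genes.

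None of 25 tested mRNA export genes had an unadjusted p under 0.05 by edgeR, where the share of all genes was 8.24%, and their median was -0.01. Among 24 genes of GABP and mitochondrial biogenesis the median was -0.02, with 2 higher and 2 lower at that threshold (16.7%). In 2 of the 24 the cross embryos all lay above WT, where the background was 1.97%. Gabpa, the DNA-binding partner of Gabpb1, was at 170, 110 and 119 CPM in the Alyref cross and at 181, 170 and 186 CPM in the Gabpb1 cross, above WT at 109, 106 and 108 CPM (log2 difference 0.54, SE 0.19, adjusted p 0.495). Nrf1, a factor for genes of respiration, also lay above WT in each of the 6 embryos, at 0.48. Gabpb2, the paralog of Gabpb1, was at -0.49 with overlap.

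Nuclear genes of oxidative phosphorylation (OXPHOS) had slightly lower values in the crosses. Of 79 tested, 69 had an estimate below 0, 21 had lower values at an unadjusted p under 0.05 and 10 lay below WT in every embryo, with a median log2 difference of -0.22. The backgrounds of these counts were 4.29% and 2.07%. None was called by edgeR, and DESeq2 called Cox7a2 (adjusted p 0.0429). Cox7a2, a subunit of cytochrome c oxidase, lay between 408 and 518 CPM in the crosses and at 562, 629 and 742 CPM in WT (log2 difference -0.50, SE 0.13, adjusted p 0.380). Atp5j, a subunit of ATP synthase, lay between 668 and 795 CPM against 910 to 1211 CPM (-0.45, SE 0.12, adjusted p 0.401). Atp5j and Gabpa are transcribed away from each other and overlap in the annotation. The list holds pseudogenes of Atp5l, whose reads can come from their parent. Its median ranged from -0.29 to -0.12 over the alternatives, with from 0 to 31 members lower at an unadjusted p under 0.05. Under ERCC scaling the median over all 16002 genes was 0.09 and that of the list -0.12, with 58 of 79 members below 0 and 0 at that threshold. The mitochondrially encoded share of counts was 4.54% ± 0.487 (SD, n = 6) in the crosses and 5.10% ± 0.0968 (SD, n = 3) in WT, with an exact permutation p of 0.119. The mitochondrial ribosome list had a median of 0.0037, and the cytosolic ribosome list a median of -0.11 with 66 of 89 members below 0 (45 of 89 and a median of -0.0026 under ERCC scaling). Of the latter, Rps18 gave -0.72 and Rps28 -0.52, each without overlap, and DESeq2 called Rps18. The 10 most abundant genes took 5.79% ± 0.400 (SD, n = 6) of counts in the crosses and 6.62% ± 0.348 (SD, n = 3) in WT (exact permutation p 0.0357, adjusted over 4 measures 0.143). The part of these shares in the list values was not tested.

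The p53 targets had higher values, with 19 of 20 above 0 and a median of 0.38, of which 2 had an unadjusted p under 0.05 against a background of 3.95% for higher genes. The median was 0.08 in the Alyref cross and 0.66 in the Gabpb1 cross. With the Y-linked covariate 14 of the 20 were above 0 with a median of 0.08, and without the pair of embryos that lack Y-linked RNA 12 of the 20 were, with a median of 0.06. With embryo weights the median was 0.14. The 20 genes summed to 1642 and 1342 CPM in Gabpb1 cross 2 and 3, to 867 to 962 CPM in the other 4 cross embryos and to 609 to 921 CPM in WT, and the part of that pair in the median of all 6 was not tested beyond these values. Ddit4l, an inhibitor of mTOR signalling, was at 25.2, 11.9 and 44.5 CPM in the Alyref cross, at 18.2, 80.4 and 22.98 CPM in the Gabpb1 cross and at 9.29, 9.22 and 6.004 CPM in WT. The groups did not overlap, and the log2 difference of Ddit4l was 2.04 (SE 0.57, adjusted p 0.401), and 1.60 without that pair. Ccng1, which encodes a cyclin induced by p53, was at 0.90, with Gabpb1 cross 2 and 3 at 345 and 302 CPM and the other cross embryos at 125 to 199 CPM, and it was 0.44 without them. Cdkn1a, the inhibitor of cyclin-dependent kinases, was at 245 CPM in Gabpb1 cross 2 and at 22.5 to 67.5 CPM in the other cross embryos, against 7.59 to 50.2 CPM in WT. Over the alternatives the median of the list ranged from 0.06 to 0.56. Bcl2l11, which encodes the death-promoting protein BIM, was at 4.17 to 19.6 CPM in the crosses and at 3.96, 1.90 and 2.35 CPM in WT, a log2 difference of 1.76 (SE 0.50, adjusted p 0.427). No other member of the list of apoptosis regulators had an unadjusted p under 0.05. DESeq2 called Ddit4l and Bcl2l11, both higher.

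In glucose and energy metabolism 5 of 22 tested genes had higher values at an unadjusted p under 0.05 (background 3.95%), and 4 lay above WT in every embryo (background 1.97%). Pdha1, the X-linked subunit of pyruvate dehydrogenase, was at 265, 250 and 258 CPM in the Alyref cross, at 249, 372 and 378 CPM in the Gabpb1 cross and at 197, 197 and 177 CPM in WT (log2 difference 0.63, SE 0.18, adjusted p 0.413). Its 2 highest values were those of the embryos without Y-linked RNA, and the difference was 0.42 without them. Cs, which encodes citrate synthase, lay between 309 and 370 CPM against 240 to 292 CPM (0.39, SE 0.12), and Gpi1 of glycolysis between 112 and 144 CPM against 83.3 to 108 CPM (0.45, SE 0.14). Of 26 tested genes of the cell cycle 4 had higher values at that threshold (background 3.95%). Aurka, a mitotic kinase, lay between 362 and 493 CPM against 214 to 349 CPM (0.57, SE 0.18, adjusted p 0.471), and Ccnd3, a D-type cyclin, had a difference of 0.78 with 1 overlapping embryo.

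Genes of interferon response and antigen presentation had a median of -0.24 over 10 tested members, and it ranged from -0.38 to 0.18 over the alternatives. Of the 10, 4 had estimates above 0, up to 1.10 for Bst2, which was named after its values were seen, and 3 were lower at an unadjusted p under 0.05, where the background was 4.29%. The class I histocompatibility gene H2-K1 was the farthest from 0. H2-K1 was at 10.8, 20.3 and 10.9 CPM in the Alyref cross, at 24.4, 33.9 and 17.3 CPM in the Gabpb1 cross and at 70.1, 50.5 and 81.4 CPM in WT. Its groups did not overlap, and its log2 difference was -1.79 (SE 0.33, adjusted p 0.186). H2-D1, of the same class, was at -1.05 with overlap, and Ifitm2, an interferon-induced membrane protein, at -1.11 without overlap. DESeq2 called H2-K1 and Ifitm2, both lower. Class I genes are similar in sequence to one another, so their counts are uncertain.

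Several of the genes farthest from 0 lie on chromosome 17, which also carries Pgc, the histocompatibility complex and Lama1. On this chromosome 93 of 715 tested genes (13.0%) had an unadjusted p under 0.05, 66 lower and 27 higher, where the share of all genes was 8.24%. Of the 48 genes of the genome with an unadjusted p under 0.001, 10 lie on chromosome 17, 9 of them lower, which is 1.40% of its genes where the share of all genes was 0.300%. By windows of 10 Mb the share at an unadjusted p under 0.05 was 13.3% of 180 genes from 20 to 30 Mb, 17.1% of 187 from 30 to 40 Mb and 17.6% of 68 from 40 to 50 Mb. The 9 include Ubd and BC051142, which passed the filter on low values through the WT embryos only. Fahd1, also among the 9, would not have passed that filter without the WT embryos. The chromosome and the threshold of 0.001 were singled out after the values were seen. Whether the groups carried different alleles of this chromosome was not tested.

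**Figure D4:**
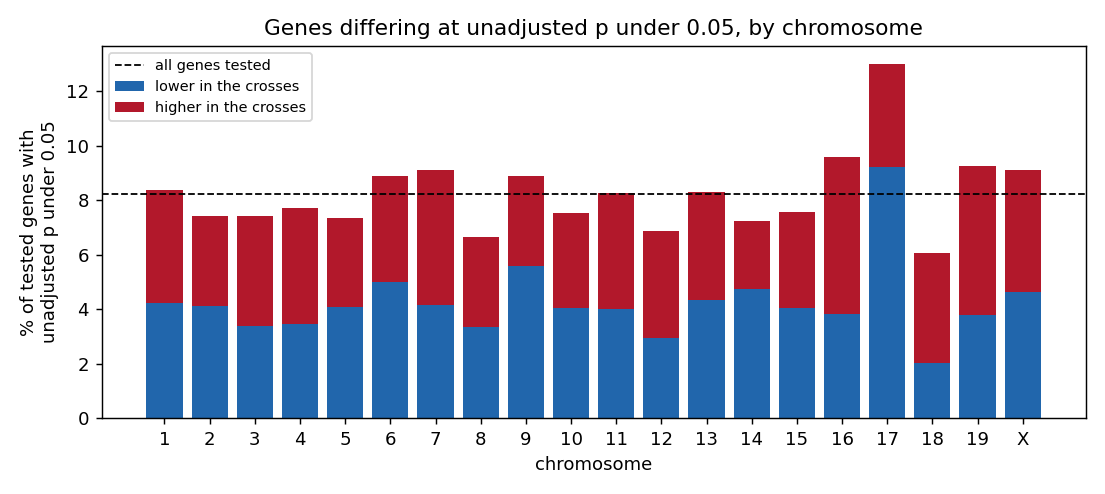
Share of tested genes with an unadjusted p under 0.05 on chromosomes 1 to 19 and X, as stacked bars for genes with lower (blue) and higher (red) values in the heterozygous-cross blastocysts, with a dashed line at the 8.24% of all genes tested. Of the chromosomes drawn, 17 stands highest at 13.0%, most of it lower values, and the next is 16 at 9.59%. Not drawn are the Y chromosome (11.1% of 9 genes) and the mitochondrial genome (20% of 35 genes).

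Hagh and Fahd1 form a divergent pair on chromosome 17, and both had lower values in each of the 6 embryos. Hagh (ENSMUSG00000024158.17, chr17:24840143-24864450, plus strand) encodes the glyoxalase that hydrolyses lactoylglutathione, and Fahd1 (chr17:24848896-24850302, minus strand) a mitochondrial hydrolase and decarboxylase. Their RefSeq start sites lie 187 bases apart, and longer annotated transcripts of Hagh start farther upstream, so that Fahd1 lies in an intron of these and shares no exon with Hagh. The stretch ahead of Hagh that is in no annotated exon, chr17:24850365-24850489 on the plus strand of GRCm38.p6, is shown because both genes of the pair had lower values. It holds none of the motifs searched above on either strand.

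Between Fahd1 and Hagh: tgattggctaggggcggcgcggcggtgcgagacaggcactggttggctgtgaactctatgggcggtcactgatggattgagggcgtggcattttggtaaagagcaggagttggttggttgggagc

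Hagh was at 4.10, 3.52 and 6.04 CPM in the Alyref cross, at 4.57, 8.29 and 9.67 CPM in the Gabpb1 cross and at 36.3, 25.3 and 24.0 CPM in WT. The log2 difference of Hagh was -2.25 (SE 0.31, adjusted p 0.0637), and it was called in 12 of the 26 alternatives, where the adjusted p ranged from 3.09e-07 to 0.271. Fahd1 lay between 0.0628 and 1.41 CPM in the crosses and at 10.8, 5.56 and 6.49 CPM in WT (log2 difference -3.58, SE 0.53, adjusted p 0.0694). It was tested only because of its WT values, so its lower value is not separate support for that of Hagh. Apom, which encodes a carrier of sphingosine 1-phosphate, lay between 1.83 and 5.54 CPM against 9.63 to 17.6 CPM (-1.68, SE 0.34). Tpsg1, a mast cell tryptase, overlaps Cacna1h on the opposite strand, and the strand setting of the counting is not given in the sources used here. Tpsg1 lay the other way on this chromosome, at 8.53 to 14.7 CPM against 0.205, 3.53 and 1.59 CPM (2.74, SE 0.59, adjusted p 0.294).

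Away from chromosome 17, Tuba4a, an alpha-tubulin, was at 127, 131 and 163 CPM in the Alyref cross, at 149, 137 and 123 CPM in the Gabpb1 cross and at 73.1, 71.7 and 66.3 CPM in WT. The groups did not overlap, and the log2 difference of Tuba4a was 0.97 (SE 0.14, adjusted p 0.0637). It was named after its values were seen, as the 1 gene with a higher value among the 9 with an adjusted p under 0.1. Ckap4, a protein of the rough endoplasmic reticulum, lay between 2.80 and 19.6 CPM against 34.2 to 56.5 CPM (-2.06, SE 0.49, adjusted p 0.337). Pigp, of the synthesis of membrane anchors, was at 74.3 to 92.6 CPM in the crosses and at 207, 96.5 and 709 CPM in WT, so that its log2 difference of -2.03 rests on the spread of the WT embryos. Gm15310 overlaps Pigp on the same strand and followed it at -1.76. Tat, Sp110, Gm16026 and Vaultrc5 had differences of 1.65 to 1.69 without overlap, and in each the highest value was that of Gabpb1 cross 2. Tat, a tyrosine aminotransferase, was at 78.7 CPM in that embryo, at 14.2 to 28.6 CPM in the other 5 and at 5.87 to 11.8 CPM in WT. Without the pair of embryos that lack Y-linked RNA the differences of Tat, Sp110, Gm16026 and Vaultrc5 were 1.10, 1.26, 1.21 and 1.24.

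**Figure D5:**
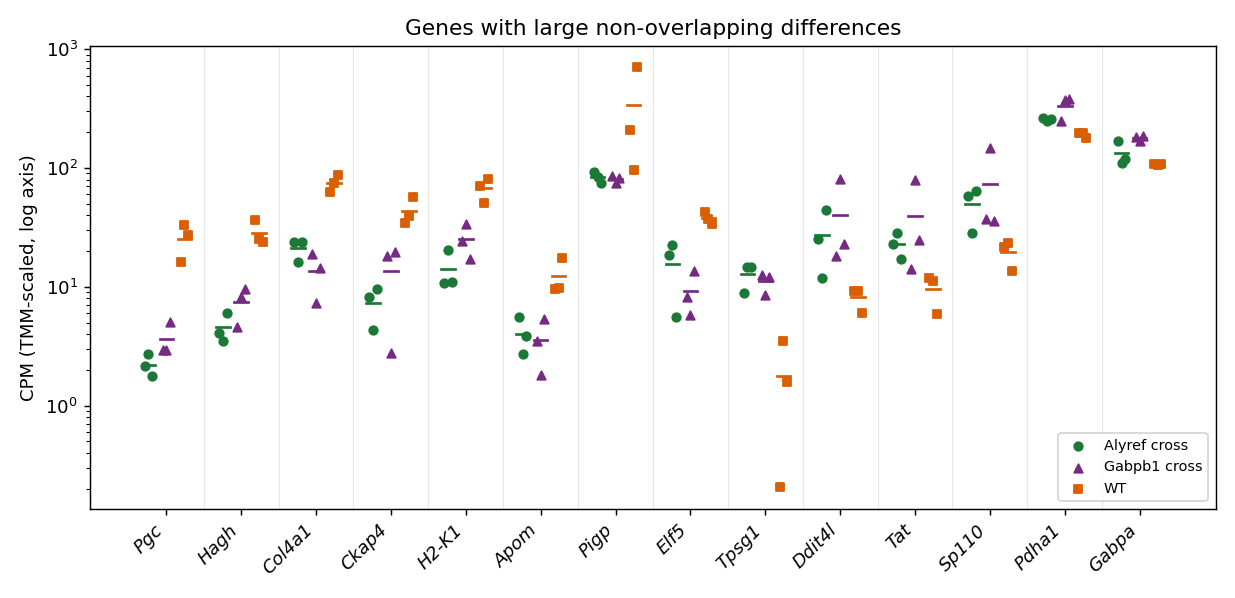
CPM on a log axis of 14 genes whose 6 heterozygous-cross values did not overlap the 3 WT values, with 1 point per blastocyst and a bar at the mean of each group of 3. Pgc lies at 1.78 to 5.06 CPM in the crosses and 16.1 to 33.1 CPM in WT, and the genes from Tpsg1 to Gabpa lie above WT.

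Markers of cumulus and blood cells were low in all libraries. The 13 cumulus cell markers summed to between 4.66 and 10.8 CPM in the crosses and between 5.59 and 6.66 CPM in WT, and the 7 blood markers to between 1.06 and 9.49 CPM against 0.524 to 1.79 CPM. The highest sum of blood markers was that of Gabpb1 cross 2. Hba-a1 was at 5.12 CPM in that embryo, and its part in the results was not tested.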

How the data were processed

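PolyA RNA was measured in single embryos. The authors deposited 1 table of raw counts per gene, although its name announces FPKM: values are whole numbers whose totals differ between embryos. Per the submitters' processing notes, which give no versions, the tools were Trimmomatic, Trim Galore, cutadapt, STAR and featureCounts with the build mm10. The annotation release and strand setting are not given in the sources used here. Of 53379 gene identifiers 50604 are in GENCODE M21, all with the same span there. The 92 ERCC rows stayed out of library sizes and tests. The other column used, the deposited exon length per gene, gave FPKM.

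Genes with an FPKM of 1 or more in 2 or more of the 9 blastocysts entered the tests. The quasi-likelihood F test of edgeR 4.0.16 (in R 4.3.3) was run on TMM-scaled counts, with Benjamini-Hochberg adjustment over all 16002 genes; every adjusted p is from it unless another tool is named. The pooled comparison fitted 1 mean to the 6 and 1 to the 3 embryos; comparisons of single crosses fitted 3 means. The SE is the log2 difference divided by the square root of F. Lists are described by counts and medians, without a set test. Values per embryo were compared with exact permutation tests over the 84 splits, whose smallest p is 0.0119. The method was tested on simulated data with 50 genes per size among 16002, with 2 wrong calls. Reads were amplified without molecular identifiers, so floors and counting intervals cover counting error only.

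Named genes are every called gene, the 8 largest differences in each direction among non-overlapping genes with an unadjusted p under 0.05 and a mean FPKM of 5 or more, a fixed set of lineage and sex-linked genes, and the 2 smallest p-values of each list. Genes outside this rule (among them Fahd1, Tuba4a, Cdkn1a, H2-D1, Nrf1, Gpi1 and the other primitive endoderm markers) were named after their values were seen. The members, lists and rules were chosen with earlier results of these data known. Same-numbered embryos of different groups did not deviate together (correlations of -0.16 to 0.19 over 9 pairs), so replicate numbers do not pair them. Alternatives were DESeq2 1.42.0, limma 3.58.1 with FPKM pseudocounts of 1 and 0.1, other scalings and filters, embryo weights, a Y-linked covariate, the replicate block, all 19 embryos and leaving out each embryo. Leaving out the embryos with unusual sex-linked RNA and thinning to 8.64 M (megacounts) were added after the data were seen.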

Additional observations from a re-analysis of the deposited data

Results flagged for a closer look

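Within the 6 heterozygous-cross blastocysts, 1 embryo stood apart from the other 5 in 15 of the 90 values examined, by Dixon's ratio. About 1 in 20 such groups is marked by chance. Gabpb1 cross 2 was the highest embryo for Xist (241 CPM), Sp110 (149 CPM), Gm16026 (99.8 CPM), Tat (78.7 CPM), Vaultrc5 (3.29 CPM) and the pseudogene Rps2-ps2 (1.22 CPM), and it lay at 84.1 on the first principal component. Gabpb1 cross 3 was the highest for Ccnd3 (396 CPM), Tead4 (124 CPM), Gabpb1 (79.4 CPM), Pgc (5.06 CPM) and Tssk6 (1.41 CPM). It lay at -63.8 on the second component and had the fewest genes detected after thinning, 23472. Alyref cross 1 had the deepest library, with 31.5 M (megacounts) of gene counts. The 2 Gabpb1 cross embryos are those without Y-linked RNA.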

How the results depend on the processing

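The pooled comparison called 1 gene, and 5 of its 26 alternatives gave the same count. It called 147 with DESeq2, 2 with all 19 embryos, 7 with ERCC scaling, 8 with limma on log2(FPKM + 1), 19 with embryo weights, 5 with no filter, 3 with the Y-linked covariate, 4 with FPKM 5 or more in 3 embryos and 3 with the average of both crosses. Of the alternatives added later, 9 were called without the pair of embryos lacking Y-linked RNA, 59 without the 3 embryos over 50 CPM of Xist (18 higher, 41 lower) and 3 after thinning. With the replicate number as a block the pooled comparison and the Alyref cross each called 0, and the block altered no other call count. Leaving out 1 embryo gave 0 to 6 calls: 0 without Alyref cross 2, Gabpb1 cross 1, WT 2 or WT 3, 3 without Gabpb1 cross 2, 1 without Alyref cross 3, 4 without WT 1, 5 without Alyref cross 1 and 6 without Gabpb1 cross 3, with 1087 to 1425 genes at an unadjusted p under 0.05. At that threshold 632 genes were higher and 687 lower, and ERCC scaling gave 426 and 268.

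The Alyref cross called 1 gene, and 61 with DESeq2, 0 with all 19 embryos, 11 with ERCC scaling, 3 with limma, 6 with embryo weights, 13 with no filter and 2 with the Y-linked covariate. The Gabpb1 cross called 0 (1822 at an unadjusted p under 0.05), and 273 with DESeq2, 17 with ERCC scaling, 21 with limma, 6 with embryo weights and 40 with no filter. With the Y-linked covariate it called 0, with 776 at an unadjusted p under 0.05. Between the crosses 0 were called (1154 at an unadjusted p under 0.05), and 78 with DESeq2. Leaving out 1 embryo gave 0 to 2 calls, 0 to 21 and 0 to 17, the last 2 limits without Gabpb1 cross 1. The log2 ratio to ERCC counts differed by 0.09, and by -0.10 to 0.22 with 1 embryo left out, negative without WT 3. The causes were not tested.

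Signs turned for 11 named genes, none of them called in any alternative of the pooled comparison. Ddx3y, Eif2s3y and Uty were called in the Gabpb1 cross and between the crosses without Gabpb1 cross 1. Alyref was at 0.00028 with DESeq2, 0.00068 with the block, 0.00034 with DESeq2's size factors, 0.088 with ERCC scaling, 0.0082 after thinning and between -0.18 and 0.12 with 1 embryo left out. With ERCC scaling Ddx3y was at 0.079, Eif1a at 0.060 and Eif2s3y at 0.066. With the Y-linked covariate Ddx3y was at 0.11, Gata3 at 0.047 and Nanog at -0.076. With embryo weights Gata3 was at 0.13, Krt8 at -0.082 and Xist at 0.058. Without the pair lacking Y-linked RNA Ddx3y was at 0.47, Eif2s3y at 0.37, Gata3 at 0.065, Nanog at -0.10 and Uty at 0.070. Without the 3 embryos with Xist over 50 CPM Ddx3y was at 0.45, Eif2s3y at 0.10, Gata3 at 0.36, Gata6 at 0.096, Krt8 at -0.067, Uty at 0.020 and Xist at 0.33. With 1 embryo left out the values lay from -0.28 to 0.15 for Ddx3y, from -0.12 to 0.06 for Eif1a, from -0.49 to 0.053 for Eif2s3y, from -0.26 to 0.20 for Gata3, from -0.45 to 0.054 for Gata6, from -0.12 to 0.15 for Krt8, from -0.68 to 0.16 for Tssk6 and from -2.24 to 2.64 for Xist. In the other results 2015 gene values kept their direction and side of the threshold, 48 passed it and 5 no longer did. The median SE was 0.351 for genes with a mean FPKM under 5, against 0.166 over 50. Thinned to the shallowest library, the counts gave 1308 genes at an unadjusted p under 0.05, against 1319 at full depth.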

Other observations

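Some genes were almost absent from the heterozygous-cross blastocysts and present in WT, at levels under those the naming rule asked for. Ubd, a ubiquitin-like protein encoded on chromosome 17 beside the histocompatibility complex, had 0 counts in the 6 embryos and 19, 26 and 48 counts in the 3 WT embryos. Against a floor of 3 counts over the 6 libraries, which covers counting error only, Ubd was at least 63.0-fold lower. Ubd passed the filter on low values through the WT embryos only, and so did the other genes named in this paragraph. Lefty2, an inhibitor of Nodal signalling, had 3 counts over the 6 embryos, all in Alyref cross 1, and 2, 139 and 212 counts in the WT embryos, so WT 1 was also low. The ratio of Lefty2 in WT to that in the crosses was 239, with a counting interval of 81.2 to 1166. A730049H05Rik was at 0 to 0.293 CPM against 1.30, 5.42 and 5.45 CPM. Casq2, a calcium-binding protein of muscle, was at 0 to 0.891 CPM against 3.48 to 7.84 CPM, and BC051142, on chromosome 17, at 0.0846 to 1.64 CPM against 7.52 to 12.5 CPM. None of these was called by edgeR's test, and DESeq2 called all 5. ERCC scaling in edgeR called Ubd, Lefty2, A730049H05Rik and BC051142. All 5 were named after their values were seen, so these calls are not a separate test of them.

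A group of similar genes on chromosome 5 lay above WT. In the window from 90 to 100 Mb, 13 of 51 tested genes (25.5%) had an unadjusted p under 0.05, where the share of all genes was 8.24%, and 9 lay above WT in every cross embryo, where the background was 1.97%. The window was singled out after the values were seen. Gm3183 was at 40.3, 31.9 and 34.5 CPM in the Alyref cross, at 70.8, 94.1 and 38.4 CPM in the Gabpb1 cross and at 21.3, 16.3 and 8.28 CPM in WT, a log2 difference of 1.75 (SE 0.43, adjusted p 0.343). Gm16513 had nearly the same values in each embryo, with a difference of 1.73, and Gm3106 gave 1.48. DESeq2 called these 3 genes. These copies may share reads, so they are not independent, and their counts are uncertain.

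Mitochondrially encoded genes differed among themselves. Of 35 tested, 16 had estimates above 0 and 19 below, with a median of -0.03. At an unadjusted p under 0.05, 3 were higher and 4 lower, where the backgrounds were 3.95% and 4.29%. The transfer RNA genes mt-Tt, mt-Tv and mt-Tk had values higher by 1.00, 1.03 and 1.10 on the log2 scale, while mt-Co3 and mt-Nd4 were at -0.44 and -0.40. Of these, mt-Tv, mt-Tk and mt-Nd4 were named after their values were seen. In the pooled comparison edgeR and DESeq2 called none of them, but DESeq2 called mt-Tt in the Gabpb1 cross. The libraries were made from polyA RNA, and whether reads in these short genes came from mature transfer RNAs was not tested.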
